A study of Mus musculus with 12 samples.

Results

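Accessible chromatin was described at 9 genes that steer B cells into, within and out of the germinal center, in mouse spleen germinal center B cells labelled CB and CC, with and without Pbrm1. The genes were Cxcr4, Cxcr5, S1pr1, S1pr2, Gpr183, Ccr6, Ccr7, Gna13 and Itga4. Their peaks were those of the mm10 count table whose midpoint had 1 of these genes as its nearest protein-coding RefSeq gene span, within 50 kb. This gave 120 of 68689 peaks, with 24 at Cxcr4, 20 at Gna13, 19 at S1pr1, 14 at Ccr6, 12 at Cxcr5, 10 at Ccr7, 9 at Gpr183, 6 at Itga4 and 6 at S1pr2. Of the 120 peaks, 16 were gene-end peaks (midpoint within 1 kb of either end of the gene), 32 lay elsewhere inside a gene and 72 were intergenic. All 9 peaks of Gpr183 also lie inside Ubac2, so that they cannot be given to 1 of these genes by position alone.

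In a germinal center, B cells divide in a dark zone and are selected for antigen binding in a light zone, and chemokine and lipid receptors on the cell surface set where a cell goes. Cxcr4 responds to the chemokine CXCL12 and draws cells to the dark zone, while Cxcr5 responds to CXCL13 and draws cells to the follicle and the light zone. S1pr2 with the G protein subunit encoded by Gna13 keeps cells in the cluster, S1pr1 draws cells towards exit, and Gpr183 draws them to the outer follicle along an oxysterol gradient. Ccr7 draws cells to the T cell zone, Ccr6 responds to CCL20, and Itga4 encodes the alpha chain of integrins that bind VCAM1 on stromal and follicular dendritic cells. Pbrm1 encodes polybromo-1, a bromodomain subunit of the PBAF chromatin remodelling complex.

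The assay was Omni-ATAC-seq, in which a transposase cuts open chromatin. The groups were HOMO CC (Pbrm1-/-), HOMO CB (Pbrm1-/-), WT CC (Pbrm1+/+) and WT CB (Pbrm1+/+), with 3 libraries each, from spleens of C57BL/6 mice of 8 to 10 weeks. The labels give the letters CB and CC without spelling them out, and the sources used here do not give how they were separated. Nothing in the labels says that libraries of a group came from separate mice, so the p-values measure the spread between these libraries, which may be technical.

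The 12 libraries held 6431354 to 45590454 counts in peaks, and the shallowest were HOMO CC 1 and HOMO CB 1. A single count in the members ranged from 9 to 3031, and the median mean level of a member peak was 15.2 CPM, a peak's count scaled to the depth of its library, against 7.78 CPM over all peaks. The peak at the Pbrm1 gene end, chr14:31019227-31019727 (mm10), did not pass the test of HOMO against WT, with log2 fold changes of -0.09 in CC (adjusted p = 0.855) and -0.04 in CB (adjusted p = 0.931). Its position relative to the deleted part of the gene is not known, so it does not check the genotype labels. In bulk libraries, a smaller share of cells with open chromatin at a site and less opening per cell cannot be told apart.

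Promoter sequence is shown for the 3 genes whose start peaks bear on the results: Itga4, because its start peak was the gene-end peak that passed the genotype test, Cxcr4, because its start peak did not pass any test while its neighbours did, and S1pr2, because its peaks had the highest mean level. Each is the 250 bases before the RefSeq gene start (GRCm38.p6), 5′ to 3′ on the strand of the gene. Capitals mark GGGCGG or its reverse complement CCGCCC, TGACGTCA, and TATAAA or its reverse complement TTTATA. The positions are chr2:79255176-79255425 (plus strand) for Itga4, chr1:128592300-128592549 (minus strand) for Cxcr4 and chr9:20976794-20977043 (minus strand) for S1pr2.
Itga4: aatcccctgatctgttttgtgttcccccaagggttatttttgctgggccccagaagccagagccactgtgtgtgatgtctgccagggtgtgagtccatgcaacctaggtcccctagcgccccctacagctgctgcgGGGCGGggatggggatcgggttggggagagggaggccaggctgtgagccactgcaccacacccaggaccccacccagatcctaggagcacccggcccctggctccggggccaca
Cxcr4: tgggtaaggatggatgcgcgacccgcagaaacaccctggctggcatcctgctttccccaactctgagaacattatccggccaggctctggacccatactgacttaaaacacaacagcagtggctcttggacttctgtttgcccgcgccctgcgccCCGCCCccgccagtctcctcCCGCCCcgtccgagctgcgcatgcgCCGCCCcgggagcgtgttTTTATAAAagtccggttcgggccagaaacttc
S1pr2: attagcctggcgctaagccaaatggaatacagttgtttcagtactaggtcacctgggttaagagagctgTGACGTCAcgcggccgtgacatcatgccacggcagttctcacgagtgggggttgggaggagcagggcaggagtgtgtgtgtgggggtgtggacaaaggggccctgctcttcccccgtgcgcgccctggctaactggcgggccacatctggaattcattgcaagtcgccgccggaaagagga

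All 250 bases of the Itga4 window lay inside the Itga4 start peak. The Cxcr4 window had 200 bases inside its own start peak, and the S1pr2 window overlapped the S1pr2 start peak over nearly all its length. The Itga4 window was 64% G or C with 6 CpG, the Cxcr4 window 61.2% with 19 CpG and the S1pr2 window 59.2% with 14 CpG, against medians of 52.4% and 6 CpG over 32851 promoter windows. GGGCGG, searched on both strands, occurred 1 time in the Itga4 window and 3 times in the Cxcr4 window, and in 32.7% of all windows. TGACGTCA, its own reverse complement, occurred 1 time in the S1pr2 window and in 1.55% of all windows. TATAAA matched on both strands in the Cxcr4 window, with the matches overlapping, and occurred in 12.4% of all windows. CACGTG, also searched on both strands, had no match in these 3 windows. The same held for the motif TGTTTA and for the longer motif CCGGAAG. A match or its absence is only a description of the letters. Of the other genes, the Gna13 window (chr11:109362544-109362793, plus strand) was 76% G or C with 33 CpG and the Gpr183 window (chr14:121965194-121965443, minus strand) 32% with 2 CpG. The 2 Ccr6 windows held no peak.

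Levels ranged widely over the genes. Over peaks of equal length, the mean CPM per peak was highest at S1pr2 (38.1) and Itga4 (29.2), followed by Cxcr5 (23.5), Gna13 (22.5), Ccr7 (18.1), Cxcr4 (18), Ccr6 (14.8), Gpr183 (13.6) and S1pr1 (12.6). Neighbours in this order overlapped in their 4 group means for Cxcr5 and Gna13, for Ccr7 and Cxcr4, for Cxcr4 and Ccr6, for Ccr6 and Gpr183, and for Gpr183 and S1pr1. The S1pr2 group means (33.1 to 42.3 CPM per peak) and the Itga4 group means (25.6 to 32.3) did not overlap with each other. The single highest member peak lay outside Ccr7, 13060 bp from the gene (mean 62.9 CPM), and the Gpr183 start peak had a mean of 7.24 CPM.

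The first comparison asked what the loss of Pbrm1 did to accessibility at these genes. In CC, 1 member peak was higher in HOMO than in WT and 0 were lower, against 2.75% of all peaks called (0.578% higher and 2.17% lower). In CB, 3 member peaks were higher and 0 lower, against 4.63% of all peaks called (0.779% higher and 3.85% lower). All calls were at Itga4 and Cxcr4, and a call was a Benjamini-Hochberg adjusted p under 0.05 from edgeR's quasi-likelihood test over all 68689 peaks. The median log2 fold change of the members was 0.08 in CC (all peaks 0.02) and 0.06 in CB (all peaks 0.01), and at an unadjusted p under 0.05 there were 23 members in CC (19.2%, against 17.2% of all peaks) and 18 in CB (15%, against 19.7%). Over counts summed per gene, 1 of 9 genes was higher in CC (Itga4), against 4.69% of 14357 genes called (0.787% higher and 3.9% lower), and 2 of 9 were higher in CB (Itga4 and Cxcr4), against 9.12% called (0.954% higher and 8.17% lower). The single direction of the member calls depended on the fit. DESeq2 called 2 higher and 2 lower member peaks in CC (4.55% of all peaks called) and 4 higher and 2 lower in CB (6.13%), and a covariate for log2 library total gave 7 higher and 5 lower in CC (8.42%) and 8 higher and 8 lower in CB (11.8%). Changes are given as log2 of HOMO over WT with a standard error (SE).

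**Figure D1:**
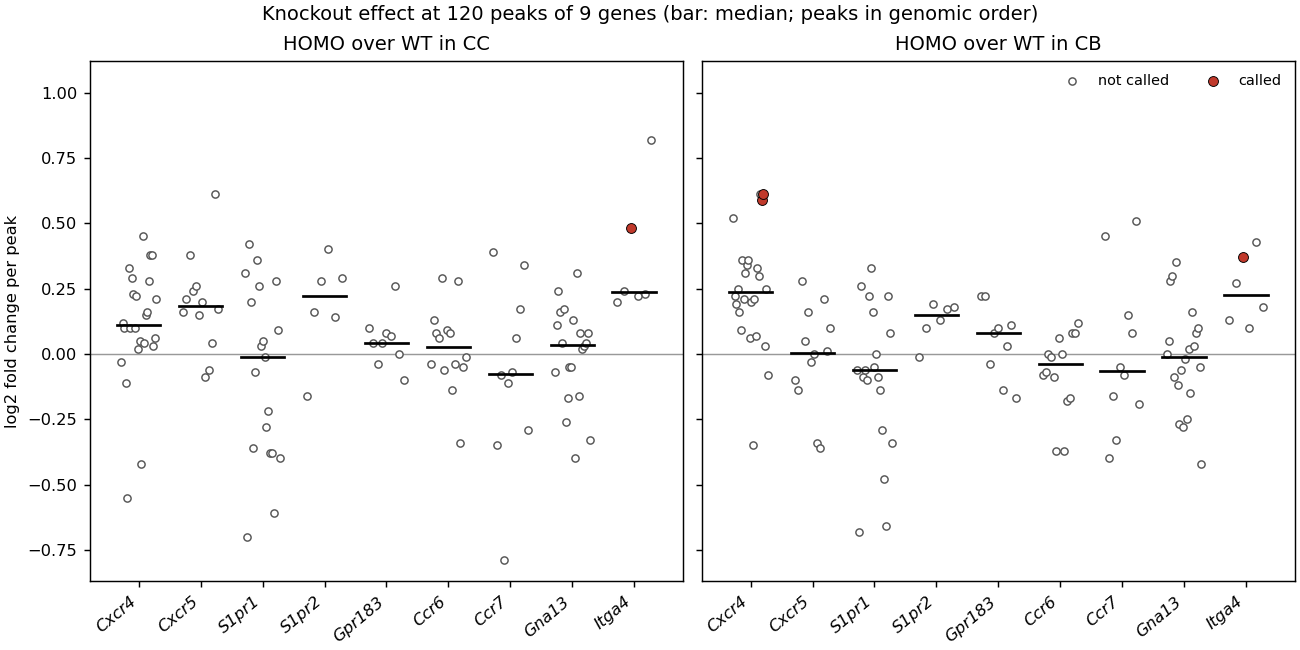
Log2 fold change of HOMO over WT at each of the 120 member peaks, by gene, in CC (left) and CB (right); each point is a peak (filled where called), and the bar is the median of the gene. The called points are 1 peak at Itga4 in CC, and 1 at Itga4 and 2 at Cxcr4 in CB.

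The Itga4 start peak, chr2:79255037-79255537 (mm10; midpoint 139 bp upstream of the gene start), was more open without Pbrm1 in both populations. In CC it had 63.9, 72.6 and 68.1 CPM in HOMO libraries 1, 2 and 3, against 52.0, 47.2 and 48.0 CPM in WT. In CB it had 70.7, 65.6 and 66.9 CPM in HOMO, against 53.4, 53.7 and 50.4 CPM in WT. Every HOMO library lay above every WT library in each population. The change was 0.48 (SE 0.08, adjusted p = 0.00817) in CC and 0.37 (SE 0.08, adjusted p = 0.0171) in CB, and the difference between these effects, 0.11, did not pass (adjusted p = 1). The call in CC was lost without HOMO CC 2 (adjusted p = 0.0963), and the call in CB without HOMO CB 2 (0.0781), HOMO CB 3 (0.0619) or WT CB 1 (0.0616). Without both WT libraries numbered 2, the CC value did not pass (0.0509).

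Accessibility summed over the 6 Itga4 peaks was also higher without Pbrm1. The sum was 175, 206 and 192 CPM in HOMO CC libraries against 163, 150 and 148 CPM in WT CC libraries. In CB it was 193, 196 and 192 CPM in HOMO against 167, 168 and 152 CPM in WT. The groups did not overlap in either population, and all 6 peaks had a positive fold change in each. The summed change was 0.32 (SE 0.07, adjusted p = 0.0143) in CC and 0.26 (SE 0.07, adjusted p = 0.0242) in CB. The summed call in CC was lost without HOMO CC 2 (adjusted p = 0.122), HOMO CC 3 (0.0569) or WT CC 2 (0.0588). In CB it was lost without HOMO CB 2 (0.116), HOMO CB 3 (0.0583), WT CB 1 (0.0534) or WT CB 3 (0.0853). The summed call in CC was also lost under cyclic loess with limma (0.0552) and without both WT libraries numbered 2 (0.0679). The peaks on both sides of the start peak did not pass: at chr2:79254480-79254980 the change was 0.24 in CC and 0.27 in CB, and at chr2:79255562-79256062 it was 0.22 and 0.10. Itga4 did not pass the test of CC against CB, at -0.02 for the summed counts in HOMO (95% interval -0.16 to 0.13) and -0.08 in WT (-0.22 to 0.07).

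**Figure D2:**
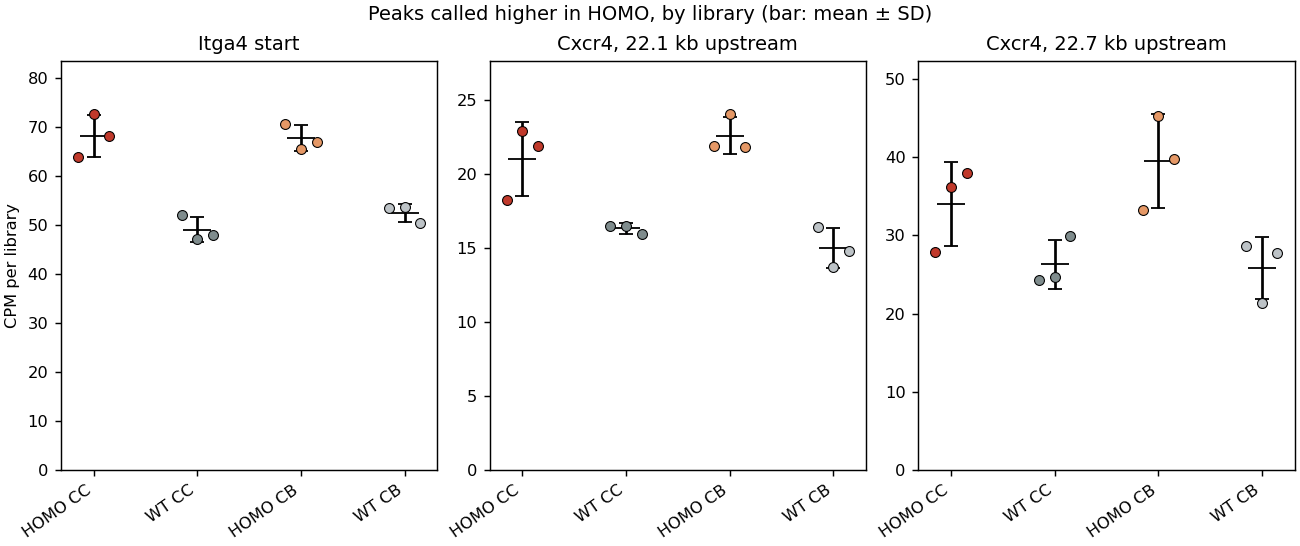
CPM by library at the 3 member peaks called higher in HOMO, with HOMO left of WT in CC and then in CB; points are libraries, bars the mean and SD of 3 libraries, and each axis starts at 0. At the Itga4 start the HOMO libraries lie between 63.9 and 72.6 CPM and the WT libraries between 47.2 and 53.7 CPM.

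At Cxcr4, the peaks higher in HOMO lay far upstream and not at the gene start. In CB, 2 neighbouring peaks about 22 kb upstream were higher in HOMO, and 22 of the 24 Cxcr4 peaks had a positive fold change (20 of 24 in CC). At chr1:128614185-128614685 (22.1 kb upstream), CB libraries had 21.9, 24 and 21.8 CPM in HOMO, against 16.4, 13.7 and 14.8 CPM in WT. The CC libraries there had 18.2, 22.9 and 21.9 CPM in HOMO, against 16.5, 16.5 and 15.9 CPM in WT. HOMO lay above WT without overlap in both, and the change passed in CB (0.59, SE 0.13, adjusted p = 0.0112) and not in CC (0.38, SE 0.12, adjusted p = 0.1). The CC value passed with the library total covariate (0.38, adjusted p = 0.0398) and without both HOMO libraries numbered 1 (0.46, 0.0319).

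At chr1:128614740-128615240 (22.7 kb upstream), CB libraries had 33.3, 45.3 and 39.8 CPM in HOMO, against 28.6, 21.3 and 27.7 CPM in WT, a change of 0.61 (SE 0.14, adjusted p = 0.0167). The CC libraries had 27.9, 36.2 and 38.0 CPM in HOMO, against 24.3, 24.7 and 29.9 CPM in WT, which overlapped (0.38, adjusted p = 0.146). This CC value passed with the library total covariate (0.35, adjusted p = 0.0215) and without both HOMO libraries numbered 1 (0.49, 0.0319). The difference of the CC and CB effects was -0.20 at the first of these peaks and -0.22 at the second, and neither passed (adjusted p = 1). The call at 22.1 kb was lost without HOMO CB 2 (adjusted p = 0.0938), and the call at 22.7 kb without HOMO CB 2 (0.141), HOMO CB 3 (0.0603) or WT CB 2 (0.0609). Without both WT libraries numbered 2, neither passed (0.0514 and 0.0815).

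Summed over the 24 Cxcr4 peaks, CB libraries had 514, 535 and 498 CPM in HOMO and 430, 441 and 424 CPM in WT, and the groups did not overlap. The summed change in CB was 0.26 (SE 0.07, adjusted p = 0.0254). In CC the sums were 359, 440 and 419 CPM in HOMO and 373, 366 and 374 CPM in WT, where HOMO CC 1, the shallowest library, lay below WT (0.13, SE 0.07, adjusted p = 0.282). The CC sum passed without both HOMO libraries numbered 1 (0.21, adjusted p = 0.0214) and without HOMO CC 1 alone. The call in CB was lost without HOMO CB 2 (0.143), WT CB 1 (0.0803) or WT CB 3 (0.064), without both WT libraries numbered 2 (0.0631), and when peaks farther than 10 kb from the gene, the called ones among them, were left out (0.172).

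The Cxcr4 start peak itself, chr1:128591999-128592499, had 34.2, 43.7 and 38.1 CPM in HOMO CC, against 38.6, 36.5 and 38.1 CPM in WT CC. In CB it had 43.6, 43.9 and 37.5 CPM in HOMO, against 33.9, 36.3 and 38.1 CPM in WT. The groups overlapped, and the change was 0.05 in CC (95% interval -0.17 to 0.26) and 0.20 in CB (-0.02 to 0.42). Some of the 24 Cxcr4 peaks had a negative change, 4 in CC (the lowest -0.55) and 2 in CB (the lowest -0.35), and none was called. One of them lay 1034 bp upstream of the start, at chr1:128593083-128593583. HOMO CC libraries had 12, 10.6 and 10.9 CPM there, against 16.2, 14.9 and 13.6 CPM in WT CC. At the same peak the HOMO CB libraries had 18.1, 16.4 and 16.5 CPM, against 21.8, 20.4 and 22.1 CPM in WT CB. HOMO lay below WT without overlap in both, with changes of -0.42 in CC (adjusted p = 0.0828) and -0.35 in CB (adjusted p = 0.117), neither of which passed. DESeq2 called the CC value (-0.43, adjusted p = 0.0392). In edgeR it passed with the library total covariate (-0.41, adjusted p = 0.0367) and without both HOMO libraries numbered 1 (-0.46, 0.045).

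**Figure D3:**
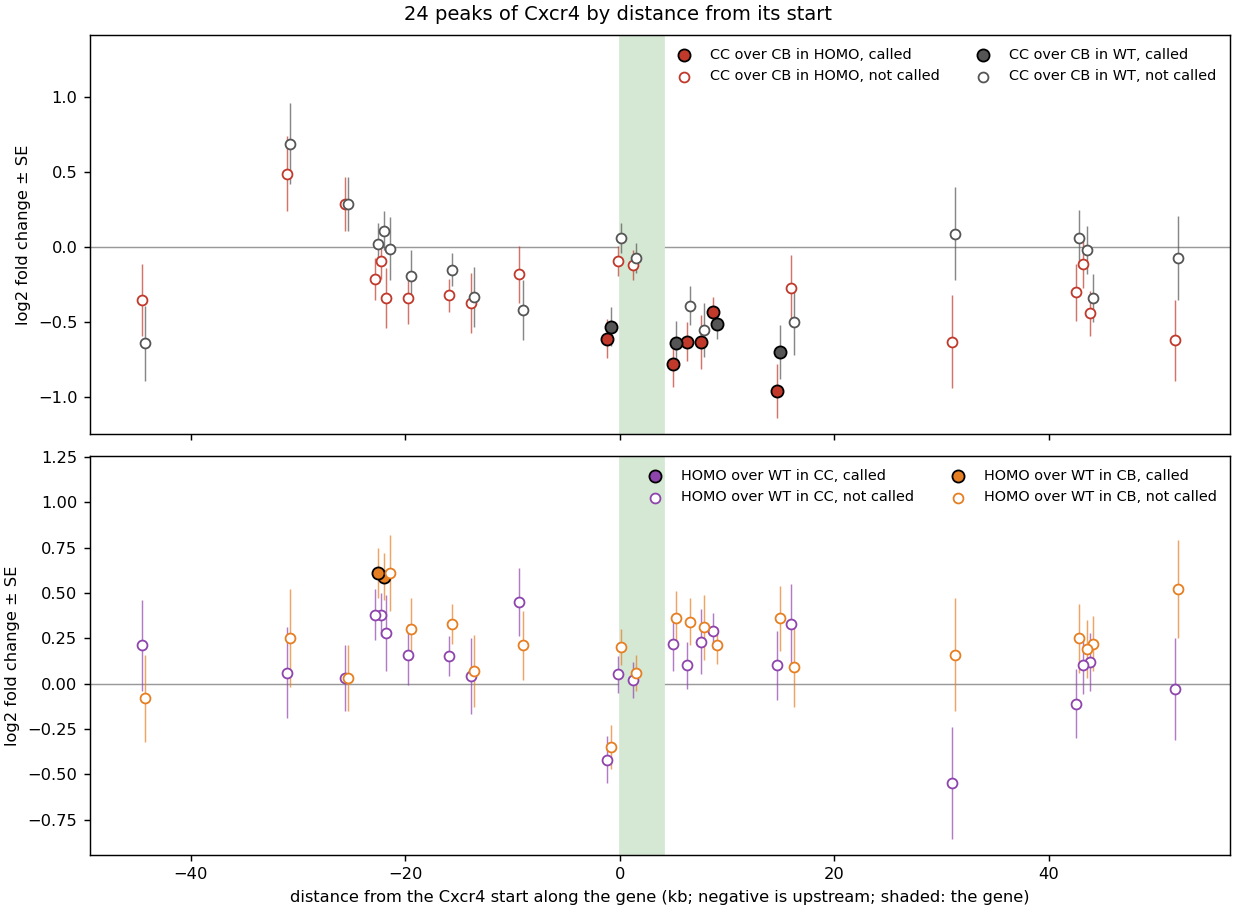
Log2 fold change with its standard error at the 24 Cxcr4 peaks, by distance from the gene start in kb (negative is upstream, the shaded band is the gene), for CC over CB (top) and HOMO over WT (bottom); filled points passed the test, and points of the 2 contrasts in a panel are set slightly apart along the axis. The CC over CB calls lie 1034 bp upstream of the start and beyond the 3′ end of the gene, out to 10745 bp. The HOMO over WT calls lie 22.1 and 22.7 kb upstream.

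No peak of the other 7 genes passed the genotype test as fitted, and their summed counts did not pass in either population. Under other settings some did, among them a Ccr7 peak and an S1pr1 gene-end peak in CB and the S1pr2 and Cxcr5 sums in CC. Without both HOMO libraries numbered 1, the 2 shallowest, the CC sums passed for S1pr2 (0.31, adjusted p = 0.0329) and Cxcr5 (0.30, 0.0457), and with the library total as a covariate the S1pr2 sum in CC (0.20, 0.0188) and the Ccr6 sum in CB (-0.17, 0.0455) did. For Cxcr5 the summed change was 0.18 in CC (95% interval -0.06 to 0.42) and 0.01 in CB (-0.24 to 0.25). Its strongest peak, at a gene end (chr9:44526154-44526654), had 50.3, 66.7 and 67.1 CPM in HOMO CC, against 47.8, 59.3 and 60.4 CPM in WT CC. The CB libraries had 55.3, 65.5 and 68.0 CPM in HOMO, against 57.8, 65.4 and 70.8 CPM in WT, and the groups overlapped in both populations. Ccr6 gave 0.05 in CC (-0.21 to 0.30) and -0.10 in CB (-0.35 to 0.16), and Ccr7 0.00 in CB (-0.20 to 0.21) with -0.21 to 0.21 as the interval in CC.

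Ccr7 had a peak near the threshold, 16033 bp outside the gene at chr11:99170860-99171360. It had 19.2, 25.2 and 20.5 CPM in HOMO CC, against 14.4, 17.8 and 19.1 CPM in WT CC. In CB it had 15.1, 16.1 and 17.8 CPM in HOMO, against 11.8, 9.62 and 12.7 CPM in WT. HOMO lay above WT without overlap in both, with changes of 0.34 in CC (adjusted p = 0.225) and 0.51 in CB (adjusted p = 0.055). The CB value passed under DESeq2 (0.52, adjusted p = 0.0264), cyclic loess (0.58, 0.0419) and the library total covariate (0.46, 0.0232), and without both HOMO libraries numbered 1 (0.55, 0.0392). At a weak Ccr7 gene-end peak, chr11:99144395-99144895, the level was 2.39 ± 0.336 CPM in HOMO CC and 4.06 ± 0.473 CPM in WT CC (SD, n = 3 each), a change of -0.79 that did not pass (adjusted p = 0.117).

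Among the lipid receptors, S1pr2 and S1pr1 had values of opposite sign, none of which passed as fitted. The 6 S1pr2 peaks summed to 199, 234 and 259 CPM in HOMO CC, against 193, 186 and 217 CPM in WT CC. In CB they summed to 228, 267 and 266 CPM in HOMO, against 219, 218 and 254 CPM in WT. The ranges overlapped, and the change was 0.22 in CC (95% interval 0.02 to 0.42, adjusted p = 0.195) and 0.14 in CB (-0.06 to 0.34, adjusted p = 0.373). The S1pr2 start peak, chr9:20976542-20977042, had 37.7, 41.7 and 48.6 CPM in HOMO CC, against 34.5, 36.1 and 44.7 CPM in WT CC, and its change was 0.16 in CC and 0.10 in CB.

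The S1pr1 gene-end peaks had negative changes. At chr3:115714630-115715130, HOMO CC libraries had 13.8, 12.4 and 10.6 CPM, against 14.3, 13.9 and 18.4 CPM in WT CC. HOMO CB libraries had 16, 15.7 and 14.2 CPM there, against 22.4, 20.3 and 20.7 CPM in WT CB. HOMO lay below WT without overlap in both populations, and the change was -0.38 in CC (adjusted p = 0.171) and -0.48 in CB (adjusted p = 0.0575). The CB value passed under DESeq2 (-0.47, adjusted p = 0.0367), with the library total covariate (-0.47, 0.0193) and without both HOMO libraries numbered 1 (-0.50, 0.0469). The other 2 S1pr1 gene-end peaks gave -0.38 and -0.61 in CC and -0.29 and -0.66 in CB, and the second of these passed with the library total covariate in both (-0.71, adjusted p = 0.0129; -0.84, 0.00231). Over all 19 S1pr1 peaks the summed change was -0.03 in CC (95% interval -0.20 to 0.14) and -0.05 in CB (-0.23 to 0.12).

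The Gpr183 start peak, chr14:121964888-121965388, was weak in every group. It had 6.65, 7.74 and 7.21 CPM in HOMO CC, against 9.16, 6.26 and 8.06 CPM in WT CC. In CB it had 5.76, 6.70 and 6.91 CPM in HOMO, against 7.17, 8.59 and 6.67 CPM in WT. The groups overlapped, and the summed change over 9 peaks was 0.07 in CC (95% interval -0.12 to 0.26) and 0.06 in CB (-0.13 to 0.24). Gna13 gave 0.00 over its 20 peaks in CC (-0.19 to 0.19) and -0.01 in CB (-0.20 to 0.18). At the Gna13 start peak, chr11:109362624-109363124, WT libraries were spread widely, at 44.4 ± 11.6 CPM in WT CC and 41.6 ± 10.9 CPM in WT CB, beside 49.8 ± 5.78 CPM in HOMO CC and 53.9 ± 4.09 CPM in HOMO CB (SD, n = 3 each).

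The strongest peak of each remaining gene did not pass as fitted. At the strongest S1pr2 peak, 11.3 kb upstream at chr9:20987796-20988296, HOMO CC libraries had 52.8, 61.4 and 61.8 CPM, against 47.3, 47.5 and 49.7 CPM in WT CC. There HOMO lay above WT without overlap in CC (0.29, adjusted p = 0.0984, and 0.0278 without both HOMO libraries numbered 1), while the CB libraries overlapped (0.18, adjusted p = 0.29). The strongest Gpr183 peak, inside the gene at chr14:121961801-121962301, gave 0.26 in CC (95% interval 0.03 to 0.50, adjusted p = 0.234) and 0.03 in CB (-0.21 to 0.26). The strongest S1pr1 peak, 14336 bp from the gene at chr3:115729141-115729641, gave 0.09 in CC (-0.16 to 0.34) and 0.08 in CB (-0.16 to 0.33). The strongest Ccr6 peak, 10.1 kb upstream at chr17:8225672-8226172, gave 0.06 in CC (-0.16 to 0.29) and -0.01 in CB (-0.24 to 0.21). The strongest Gna13 peak, 9317 bp beyond the end of the gene at chr11:109410436-109410936, gave 0.08 in CC (-0.11 to 0.28) and -0.05 in CB (-0.23 to 0.14). A second Gna13 gene-end peak, chr11:109363224-109363724, gave -0.26 in CC (-0.49 to -0.04, adjusted p = 0.194) and -0.12 in CB (-0.34 to 0.10). The second Ccr7 gene-end peak, chr11:99155024-99155524, gave -0.07 in CC (-0.43 to 0.29) and -0.08 in CB (-0.44 to 0.28), and the second Cxcr5 gene-end peak, chr9:44511836-44512336, 0.16 (-0.11 to 0.44) and -0.10 (-0.37 to 0.17).

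**Figure D4:**
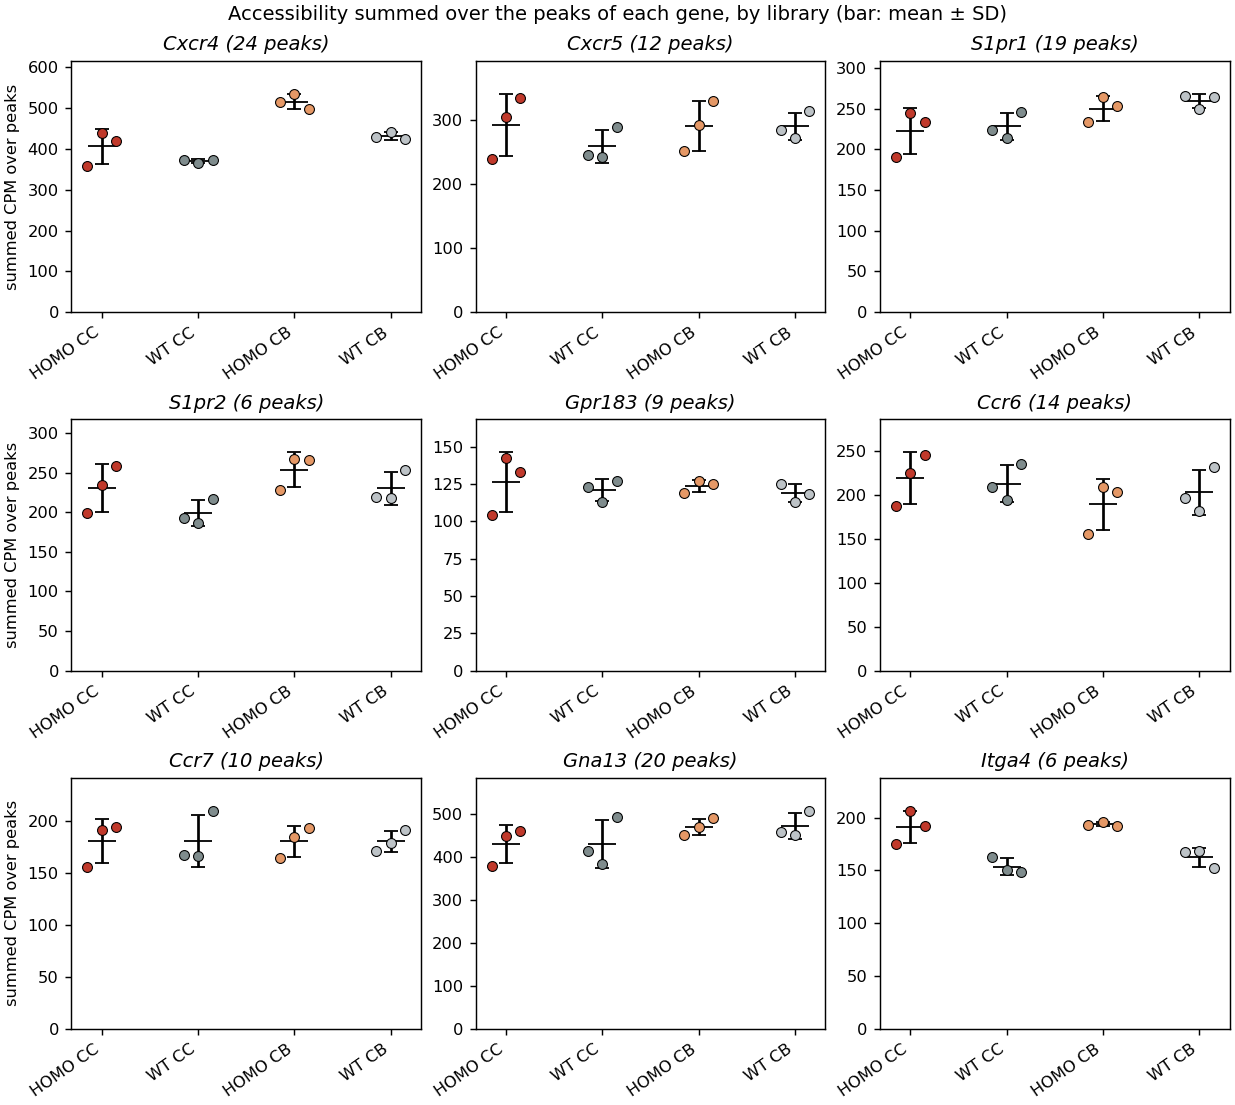
Accessibility summed over the peaks of each gene, in CPM, by library, with HOMO left of WT in CC and then in CB; points are libraries and bars the mean and SD of 3 libraries, and each axis starts at 0. HOMO and WT separate in both populations at Itga4 and in CB at Cxcr4.

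Whether the loss of Pbrm1 acted differently in CC and in CB was tested directly. No member peak and no member gene passed the test of the difference, and no peak of all 68689 did (0% called), nor did any gene in the summed counts (0% called). At an unadjusted p under 0.05 edgeR gave 1 member peak (0.833%) and 810 of all peaks (1.18%), and DESeq2 called 0 peaks over the whole table and gave 652 at an unadjusted p under 0.05. These shares lie below the threshold itself, so the test was conservative and its lack of calls does not show equal effects. An edgeR fit with a term for each number within a genotype gave 3767 of all peaks at that unadjusted p, and also called 0. The 1 member peak lay inside Ccr6, at chr17:8246289-8246789, with a difference of 0.45 (edgeR adjusted p = 1). The gene-level differences ran from -0.12 at Cxcr4 (95% interval -0.33 to 0.08) to 0.18 at Cxcr5 (-0.16 to 0.52).

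The second comparison set CC against CB within each genotype, and here Cxcr4 gave the most calls. In HOMO, 3 member peaks were higher and 9 lower in CC than in CB, against 7.22% of all peaks called (4.78% higher and 2.44% lower). In WT, 2 were higher and 8 lower, against 5.43% of all peaks called (3.35% higher and 2.08% lower). The share of members called was 10% in HOMO and 8.33% in WT, and most of their calls were lower in CC while most calls over all peaks were higher in this fit. The median change of the members was -0.09 in HOMO (all peaks about 0) and -0.10 in WT (all peaks -0.03), and 8 calls were shared in the same direction, 66.7% of the HOMO calls and 80% of the WT calls. Over summed counts, 1 of 9 genes was called in HOMO (Cxcr4, lower), against 4.92% of all genes (2.95% higher and 1.97% lower), and 0 of 9 in WT, against 4.3% (2.08% higher and 2.22% lower, so that lower calls were slightly more frequent over all genes too). In WT, 3 of 9 genes had an unadjusted p under 0.05 by edgeR, against 20.7% of all genes, and DESeq2 called 1 gene, against 6.84%. All 10 WT peak calls were lost without both WT libraries numbered 2, where 333 higher and 194 lower calls were left over all peaks. With only the 2 groups compared in the fit 8 WT calls were left, and cyclic loess with limma left 5, ending those at Cxcr5 (adjusted p = 0.0654), S1pr1 (0.073), Ccr6 (0.0519) and Gna13 (0.0588) and at the Cxcr4 peak 1034 bp upstream (0.0599). Without both HOMO libraries numbered 1, 3 HOMO calls were lost, at 2 Cxcr4 peaks (0.104 and 0.0796) and inside Ccr6 (0.0686).

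Within a genotype, CB and CC libraries of the same number varied together, and a replicate block, which fits each number of a genotype as its own term, gave more calls. In HOMO it called 30 member peaks (25%; 8 higher and 22 lower), against 22.2% of all peaks (12.5% higher and 9.68% lower). In WT it called 37 (30.8%; 8 higher and 29 lower), against 22.1% of all peaks (10.4% higher and 11.8% lower). The share in HOMO was near that of all peaks, and in WT lower calls outnumbered higher ones over all peaks as well. All 12 and all 10 of the earlier calls were among them. In HOMO it called 11 lower peaks at Cxcr4, 5 higher at Ccr6, 4 lower at S1pr1, 3 lower and 1 higher at Gna13, 1 of each direction at Cxcr5 and at Ccr7, and 1 lower each at Gpr183 and S1pr2. In WT it called 10 lower and 1 higher at Cxcr4, 6 lower at S1pr1, 5 lower and 1 higher at Gna13, 4 lower and 1 higher at Cxcr5, 2 higher at Ccr6, 2 lower at S1pr2, 1 of each direction at Ccr7 and at Gpr183, and 1 higher at Itga4. Over summed counts it called 5 of 9 genes in each genotype, against 21.9% of all genes in HOMO (10.2% higher and 11.8% lower) and 29.8% in WT (8.3% higher and 21.5% lower). These were Cxcr4, S1pr1, S1pr2 and Gna13, lower in CC in both, with Ccr6 higher in HOMO and Cxcr5 lower in WT.

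**Figure D5:**
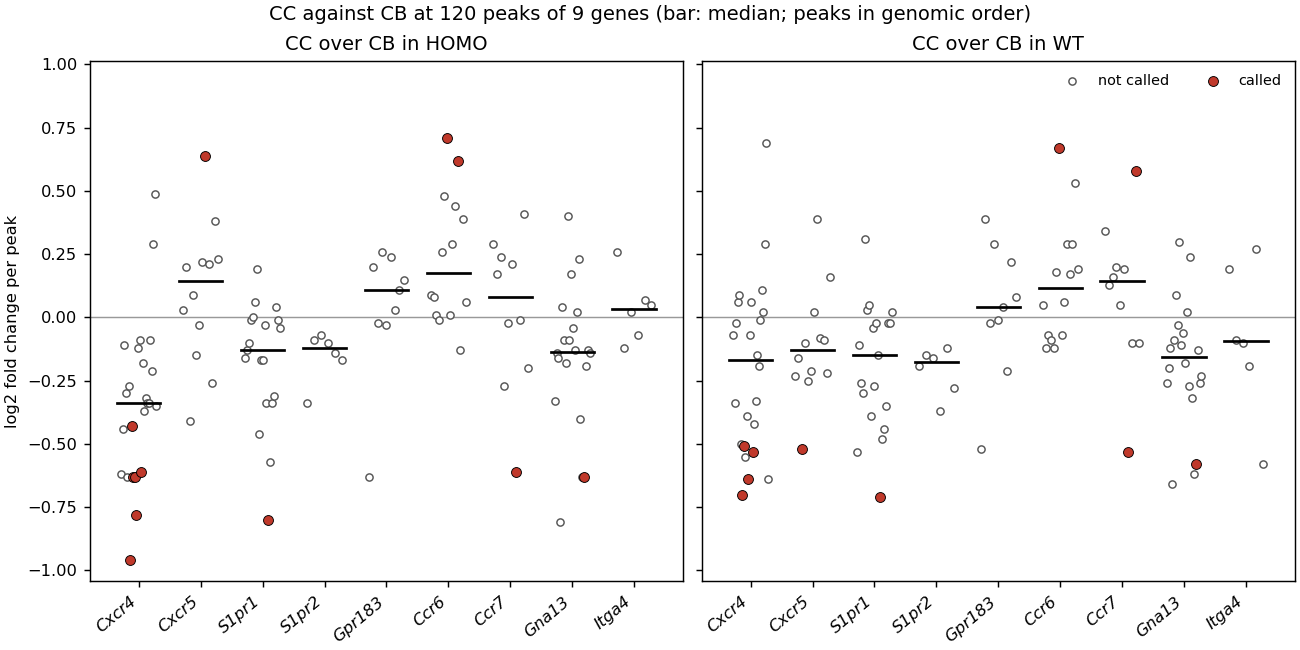
Log2 fold change of CC over CB at each of the 120 member peaks, by gene, in HOMO (left) and WT (right); each point is a peak (filled where called without the block), and the bar is the median of the gene. Cxcr4 has 6 called peaks in HOMO and 4 in WT, each lower in CC, and the called Ccr6 peaks are higher in CC.

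Cxcr4 was less accessible in CC than in CB, at a peak just upstream of the start and at peaks beyond the 3′ end, with no call between them. The 24 peaks summed to 359, 440 and 419 CPM in HOMO CC, against 514, 535 and 498 CPM in HOMO CB, without overlap. In WT they summed to 373, 366 and 374 CPM in CC, against 430, 441 and 424 CPM in CB, also without overlap. The summed change was -0.34 (SE 0.07, adjusted p = 0.00608) in HOMO, where it kept its call without each single library (adjusted p 0.00489 to 0.0408). In WT it was -0.22 (SE 0.07, adjusted p = 0.0777), which passed with the block (adjusted p = 6.32e-05). Of the 24 peaks, 22 had a negative change in HOMO and 17 in WT. CXCR4 protein is widely used to sort dark zone from light zone B cells, and whether it was part of the gate here is not known, so its part in these values was not tested.

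The largest Cxcr4 change among calls was 10745 bp beyond the 3′ end, at chr1:128577204-128577704, with 6.95, 6.37 and 6.71 CPM in HOMO CC, against 16.4, 12.1 and 11.2 CPM in HOMO CB. In WT it had 7.84, 5.42 and 5.50 CPM in CC, against 9.85, 10.7 and 9.78 CPM in CB. CC lay below CB without overlap in both genotypes, with changes of -0.96 (SE 0.18, adjusted p = 0.00249) in HOMO and -0.70 (SE 0.18, adjusted p = 0.0291) in WT. The HOMO call held without each single library, while the WT call was lost without WT CB 1 (0.085), WT CB 2 (0.0806), WT CC 2 (0.134) or WT CC 3 (0.0921), and with only the 2 groups compared (0.0567).

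At the peak 969 bp beyond the 3′ end, chr1:128586980-128587480, HOMO libraries had 14.3, 22.6 and 20.2 CPM in CC, against 33.3, 34.0 and 33.3 CPM in CB. In WT the values were 13.8, 15 and 20.7 CPM in CC, against 24.9, 28.9 and 25.1 CPM in CB. Again no CC library reached a CB library, and the changes were -0.78 (adjusted p = 0.00304) in HOMO and -0.64 (adjusted p = 0.0171) in WT. The HOMO call held without each single library. The WT call was lost without WT CB 1 (0.0514), WT CB 2 (0.0678), WT CC 1 (0.0909) or WT CC 2 (0.0926).

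The strongest of the lower peaks, chr1:128583159-128583659, had 38.4, 44.9 and 40 CPM in HOMO CC, against 59.9, 56.1 and 51.3 CPM in HOMO CB. The WT libraries had 31.8, 35.6 and 33.7 CPM in CC, against 45.8, 54.7 and 44.7 CPM in CB. The groups did not overlap, and the changes were -0.43 (adjusted p = 0.0124) in HOMO and -0.51 (adjusted p = 0.00572) in WT, and the WT call held without each single library. The HOMO call was lost without HOMO CB 2 (0.0503) or HOMO CC 3 (0.0534). Between these peaks, chr1:128585654-128586154 was lower in CC in HOMO (-0.63, adjusted p = 0.00411, kept without each single library) and gave -0.39 in WT (adjusted p = 0.0864, and 0.00247 with the block). At chr1:128584320-128584820, HOMO libraries had 12.7, 18.8 and 22.2 CPM in CC, against 24.4, 29.2 and 31.4 CPM in CB, without overlap. The change there was -0.63 in HOMO (adjusted p = 0.0382) and -0.55 in WT (adjusted p = 0.0897, and 1.91e-05 with the block). That HOMO call was lost without HOMO CB 2 (0.117), HOMO CB 3 (0.151), HOMO CC 1 (0.106) or HOMO CC 2 (0.127).

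On the upstream side, the peak 1034 bp from the Cxcr4 start was lower in CC, by -0.61 in HOMO (adjusted p = 0.00556) and -0.53 in WT (adjusted p = 0.0156). Its values stand above with the genotype comparison, and in each genotype every CC library lay below every CB library. The HOMO call held without each single library, and the WT call was lost without WT CB 1 (0.0672), WT CC 2 (0.061) or WT CC 3 (0.06). The start peak between these flanks gave -0.09 in HOMO (95% interval -0.31 to 0.13) and 0.06 in WT (-0.15 to 0.28). The upstream peaks that were higher in HOMO than in WT, at 22.1 and 22.7 kb, gave -0.09 and -0.21 in HOMO and 0.11 and 0.02 in WT, without a call. With the term for number, the peak at 22.7 kb passed in HOMO (adjusted p = 0.0465), as did the strongest Cxcr4 peak, 15.8 kb upstream (-0.30, adjusted p = 0.000423).

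Ccr6, the CCL20 receptor, was more accessible in CC at peaks on both sides of its start. At chr17:8234368-8234868 (1425 bp upstream), HOMO libraries had 14.3, 17.7 and 17.3 CPM in CC, against 6.55, 11.9 and 10.9 CPM in CB. In WT the values were 15.3, 14.5 and 16.8 CPM in CC, against 7.95, 10.1 and 11.3 CPM in CB. CC lay above CB without overlap in both genotypes, with changes of 0.71 (SE 0.18, adjusted p = 0.019) in HOMO and 0.67 (SE 0.18, adjusted p = 0.0362) in WT. The HOMO call was lost without HOMO CB 1 (0.0595), HOMO CC 2 (0.108) or HOMO CC 3 (0.0657). The WT call was lost without HOMO CC 2 (0.0535), WT CB 1 (0.199), WT CB 2 (0.0852), WT CC 1 (0.0869), WT CC 2 (0.0777) or WT CC 3 (0.0898).

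Inside Ccr6, at chr17:8246289-8246789, HOMO libraries had 17.9, 17.5 and 17.4 CPM in CC, against 9.17, 13.5 and 10.9 CPM in CB. The WT libraries had 13.0, 16.7 and 13.5 CPM in CC, against 12.8, 12.5 and 13.1 CPM in CB. The groups separated in HOMO (0.62, SE 0.15, adjusted p = 0.0134) and overlapped in WT (0.17, SE 0.15, adjusted p = 0.579). The HOMO call was lost without HOMO CB 3 (0.0754) or HOMO CC 2 (0.0595). Summed over 14 peaks, Ccr6 gave 0.21 in HOMO (95% interval -0.05 to 0.46; adjusted p = 0.000149 with the block) and 0.06 in WT (-0.19 to 0.32).

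Cxcr5, the CXCL13 receptor, had calls of both signs. Inside the gene, at chr9:44515426-44515926, HOMO libraries had 21.9, 30.4 and 32.2 CPM in CC, against 38.9, 37.9 and 38.1 CPM in CB. In WT the values were 17.9, 21.9 and 25.7 CPM in CC, against 31.2, 31.3 and 31.9 CPM in CB. CC lay below CB without overlap in both, and the change passed in WT (-0.52, adjusted p = 0.0276) and, with the block, in HOMO (-0.38, adjusted p = 0.000263; 0.0628 without it). The WT call was lost without WT CB 1 (0.0838), WT CB 2 (0.0643), WT CB 3 (0.0529), WT CC 1 (0.14) or WT CC 2 (0.0944), and with only the 2 groups compared (0.0515).

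Outside Cxcr5, 6841 bp from the gene at chr9:44533035-44533535, HOMO libraries had 9.76, 13.1 and 11.9 CPM in CC, against 6.55, 7.24 and 8.56 CPM in CB. The WT libraries had 12.6, 12.5 and 12.6 CPM in CC, against 9.81, 10.8 and 8.59 CPM in CB. CC lay above CB without overlap in both, with 0.64 in HOMO (adjusted p = 0.0175) and 0.39 in WT (adjusted p = 0.174, and 0.015 with the block). The HOMO call was lost without HOMO CB 1 (0.0505), HOMO CB 2 (0.0828), HOMO CC 2 (0.129) or HOMO CC 3 (0.0589). The Cxcr5 gene-end peaks gave 0.03 and -0.03 in HOMO and -0.23 and -0.21 in WT, and the WT values passed with the block (adjusted p = 0.0295 and 0.00988).

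Ccr7, the receptor for T cell zone chemokines, also had calls of both signs outside the gene. At chr11:99162912-99163412 (8085 bp from the gene), HOMO libraries had 14.8, 15.1 and 14.6 CPM in CC, against 23.4, 21.3 and 23.4 CPM in CB. In WT the values were 14.5, 13.3 and 14.7 CPM in CC, against 21.1, 22.1 and 18.4 CPM in CB. CC lay below CB without overlap, by -0.61 in HOMO (adjusted p = 0.00368, kept without each single library) and -0.53 in WT (adjusted p = 0.0144). The WT call was lost without WT CB 1 (0.0695), WT CB 2 (0.0555) or WT CC 2 (0.0768).

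The Ccr7 peak 16033 bp from the gene, whose values are given above, was higher in CC in WT (0.58, adjusted p = 0.028) and gave 0.41 in HOMO (adjusted p = 0.102, and 0.00134 with the block). In each genotype every CC library lay above every CB library. The WT call was lost without WT CB 1 (0.0963), WT CB 2 (0.112), WT CC 2 (0.1) or WT CC 3 (0.0944). The strongest Ccr7 peak, 13060 bp from the gene, gave -0.01 in HOMO (95% interval -0.20 to 0.17) and -0.10 in WT (-0.29 to 0.08).

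S1pr1, the egress receptor, was lower in CC at a peak inside the gene, chr3:115713439-115713939. HOMO libraries had 5.47, 9.35 and 7.69 CPM in CC, against 11.1, 14.9 and 13.9 CPM in CB. The WT libraries had 7.84, 7.64 and 11.4 CPM in CC, against 15.1, 12.7 and 16.4 CPM in CB. The groups did not overlap, with changes of -0.80 (SE 0.19, adjusted p = 0.0137) in HOMO and -0.71 (SE 0.19, adjusted p = 0.0331) in WT. The HOMO call was lost without HOMO CB 2 (0.0776) or HOMO CB 3 (0.0543), and the WT call without WT CB 1 (0.108), WT CB 3 (0.0944), WT CC 1 (0.133) or WT CC 2 (0.156). With the term for number, 2 of the 3 S1pr1 gene-end peaks passed in both genotypes: chr3:115714016-115714516 (-0.52 in HOMO, adjusted p = 0.00336; -0.46 in WT, 0.0112) and chr3:115714630-115715130 (-0.36, 0.0093; -0.42, 0.00169). The summed counts of S1pr1 then gave -0.16 in HOMO (adjusted p = 0.00374) and -0.19 in WT (adjusted p = 0.0006).

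Gna13, which encodes the G protein subunit that acts below S1pr2, was lower in CC 4709 bp beyond its end, at chr11:109405828-109406328. HOMO libraries had 16, 18.5 and 19.7 CPM in CC, against 22.9, 33.0 and 28 CPM in CB. In WT the values were 17.2, 14.6 and 21.6 CPM in CC, against 26.1, 26.8 and 27.3 CPM in CB. CC lay below CB without overlap in both genotypes, with -0.63 (adjusted p = 0.0106) in HOMO and -0.58 (adjusted p = 0.0246) in WT. The HOMO call was lost without HOMO CB 2 (0.0902) or HOMO CC 2 (0.0532), and the WT call without WT CB 1 (0.0742), WT CB 2 (0.0615), WT CB 3 (0.0502), WT CC 1 (0.0872) or WT CC 2 (0.141). The start peak of Gna13 gave -0.09 in HOMO (95% interval -0.48 to 0.29) and 0.09 in WT (-0.29 to 0.48).

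S1pr2, Gpr183 and Itga4 had no called peak between CC and CB without the block. All 6 S1pr2 peaks had a negative change in both genotypes, from -0.34 to -0.07 in HOMO and from -0.37 to -0.12 in WT. Their sum gave -0.14 in HOMO (95% interval -0.34 to 0.06) and -0.21 in WT (-0.41 to -0.02), and it passed with the block in both (adjusted p = 0.0111 and 8.8e-05). At the peak level it called 1 S1pr2 peak in HOMO (-0.33, adjusted p = 0.0216) and 2 in WT (-0.36, 7.78e-05; -0.28, 0.00112). The Gpr183 sum gave 0.04 in HOMO (-0.15 to 0.22) and 0.02 in WT (-0.16 to 0.21), with peaks of both signs under the block. The Gpr183 peak at chr14:121954556-121955056, inside the gene, passed with it in both genotypes (-0.60 in HOMO, adjusted p = 0.000566; -0.50 in WT, 0.0082), and its neighbour at chr14:121955320-121955820 passed in WT (0.40, adjusted p = 0.0115) and not in HOMO (0.24, 0.122). An Itga4 peak inside the gene, chr2:79256866-79257366, passed with the block in WT (0.29, adjusted p = 0.0433) and not in HOMO (0.08, 0.619). These last 3 peaks were named after their values were seen.

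Genes of related function were counted in the same fits. Over all peaks, HOMO over WT called 2.75% in CC and 4.63% in CB. CC over CB called 7.22% in HOMO (4.78% higher and 2.44% lower) and 5.43% in WT (3.35% and 2.08%). In 21 genes of related receptors with 133 peaks, chemokine and lipid receptors among them, HOMO over WT gave 2 higher and 0 lower peaks in CC (1.5%). In CB it gave 0 higher and 4 lower (3.01%). CC over CB gave 14 higher and 1 lower in HOMO (11.3%) and 9 higher and 1 lower in WT (7.52%). The gene-end peak of Gpr55, a lysolipid receptor, was higher in CC, at 26.7 ± 5.35 CPM in HOMO CC and 12.9 ± 1.02 CPM in HOMO CB (1.07, adjusted p = 0.000369), and at 24.8 ± 2.05 CPM in WT CC and 14.2 ± 3.27 CPM in WT CB (0.78, adjusted p = 0.00681; SD, n = 3 each). A peak inside P2ry14 was lower in HOMO CB (2.78 ± 0.557 CPM) than in WT CB (5.93 ± 1.53 CPM), by -1.09 (adjusted p = 0.0133). A peak 16365 bp from S1pr3 was higher in HOMO CC (24.1 ± 2.19 CPM) than in WT CC (14.9 ± 1.27 CPM), by 0.70 (adjusted p = 0.00822).

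The 11 genes of ligands and ligand enzymes with a peak (44 peaks) had 0 higher and 2 lower peaks in HOMO in each population, and both were the same gene-end peaks. Ch25h, the enzyme that starts synthesis of the Gpr183 ligand, was at 3.62 ± 0.71 CPM in HOMO CC and 6.54 ± 0.889 CPM in WT CC (-0.92, adjusted p = 0.0271), and at 3.67 ± 0.798 CPM in HOMO CB and 6.71 ± 1.07 CPM in WT CB (-0.96, adjusted p = 0.0147). Sgpl1, the lyase that breaks down sphingosine-1-phosphate, was at 17.7 ± 3.79 CPM in HOMO CC and 27.1 ± 3.73 CPM in WT CC (-0.65, adjusted p = 0.0477), and at 19.4 ± 4.56 CPM in HOMO CB and 29.3 ± 4.61 CPM in WT CB (-0.62, adjusted p = 0.0412). All errors here are SD over 3 libraries. In this list CC over CB gave 4 higher peaks in HOMO and 5 in WT, and 0 lower. The shares called were 4.55% for HOMO over WT in each population, and 9.09% in HOMO and 11.4% in WT for CC over CB.

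The 19 G protein genes and regulators (150 peaks) had 0 higher and 1 lower peak in HOMO CC and 1 higher and 1 lower in HOMO CB. These were the gene-end peaks of Ric8a, a chaperone of G protein alpha subunits (-0.47 in CC, adjusted p = 0.0456), and of the receptor kinases Grk2 (0.45 in CB, adjusted p = 0.0329) and Grk5 (-0.51 in CB, adjusted p = 0.00885). CC over CB gave 11 higher and 5 lower in HOMO (10.7% called) and 7 higher and 2 lower in WT (6%). For HOMO over WT the share called was 0.667% in CC and 1.33% in CB.

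The 16 adhesion genes with a peak (161 peaks, Itga4 not among them) had 1 higher and 1 lower peak in HOMO CC and 0 higher and 4 lower in HOMO CB. A peak inside Sema4c, a semaphorin, was lower in HOMO in both, at 6.05 ± 0.85 CPM in HOMO CC and 12.8 ± 2.19 CPM in WT CC (-1.09, adjusted p = 0.00745) and at 5.05 ± 0.446 CPM in HOMO CB and 12 ± 2.36 CPM in WT CB (-1.27, adjusted p = 0.00138; SD, n = 3 each). The gene-end peak of Itga6, another integrin alpha chain, was lower in HOMO CB (-0.49, adjusted p = 0.0403). CC over CB gave 9 higher and 4 lower in HOMO (8.07% called) and 3 higher and 5 lower in WT (4.97%). For HOMO over WT the share called was 1.24% in CC and 2.48% in CB.

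Of the 5 transcription factors listed as regulators of these receptors (Klf2, Foxo1, Bcl6, Tcf3 and Bach2; 108 peaks), HOMO over WT gave 2 higher and 1 lower peak in CC and 4 higher and 1 lower in CB. A gene-end peak of Foxo1, a factor that maintains the dark zone program and Cxcr4, was lower in HOMO in both populations. It was at 14.8 ± 1.37 CPM in HOMO CC and 21.7 ± 1.67 CPM in WT CC (-0.54, adjusted p = 0.0321). In CB it was at 15 ± 1.86 CPM in HOMO and 21.9 ± 1.41 CPM in WT (-0.56, adjusted p = 0.0193, SD with n = 3 each). The strongest Foxo1 gene-end peak, with a mean of 39.9 CPM, was another one and was not called between the genotypes. A Bach2 gene-end peak was higher in HOMO CB (24.7 ± 1.89 CPM) than in WT CB (16.8 ± 1.68 CPM), by 0.56 (adjusted p = 0.0307). CC over CB gave 19 higher and 7 lower peaks in HOMO (24.1% called) and 17 higher and 7 lower in WT (22.2%). For HOMO over WT the share called was 2.78% in CC and 4.63% in CB.

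The libraries were checked against marker genes. The 7 germinal center B cell markers had summed levels of 1091 to 1221 CPM in HOMO CC, 1010 to 1040 in WT CC, 1150 to 1231 in HOMO CB and 1066 to 1118 CPM in WT CB, so this sum was higher in HOMO in both populations without overlap, as was Itga4. Of the 59 germinal center marker peaks, 1 was higher and 1 lower in HOMO in each population (over all peaks 0.578% and 2.17% in CC, 0.779% and 3.85% in CB). The sum of 4 dark zone markers also lay higher in HOMO without overlap. It was 660 to 669 CPM in HOMO CC, 632 to 638 in WT CC, 669 to 733 in HOMO CB and 642 to 664 CPM in WT CB. One of these markers, Mki67, is also among the germinal center markers. The called peaks did not follow this sum. Of the 42 dark zone peaks, 0 were higher and 2 lower in HOMO in CC (0.578% and 2.17% over all peaks). In CB 1 was higher and 2 lower (0.779% and 3.85%). The median log2 fold change of these peaks was 0.01 in CC and 0.11 in CB. The sum of the 5 light zone markers overlapped between the genotypes, at 1530 to 1821 CPM in HOMO CC, 1513 to 1701 in WT CC, 1503 to 1666 in HOMO CB and 1536 to 1709 CPM in WT CB. Of the 74 light zone marker peaks, 13 were higher and 2 lower in CC than in CB in HOMO, and 8 higher and 1 lower in WT. Over all peaks 4.78% were higher and 2.44% lower in HOMO, and 3.35% and 2.08% in WT. Of the 42 dark zone peaks, 1 was higher and 3 lower in CC in HOMO, and 1 higher and 1 lower in WT. Their median log2 fold change of CC over CB was 0.05 in HOMO and 0.01 in WT. The sum of the 5 general B cell markers was 1071 to 1243 CPM in HOMO CC, 1014 to 1051 in WT CC, 1204 to 1226 in HOMO CB and 1110 to 1138 CPM in WT CB. It too lay higher in HOMO without overlap in both populations. Of the 44 B cell marker peaks, 3 were higher and 0 lower in HOMO in CC (0.578% and 2.17% over all peaks). In CB 0 were higher and 0 lower (0.779% and 3.85%). Of the T cell markers 3 of 6 had a peak (none at Cd3g, Cd8a and Lck), summing to 29.7 to 38 CPM in HOMO CC, 35.4 to 38.5 CPM in WT CC, 27 to 32 in HOMO CB and 31.7 to 34.8 in WT CB. Of the myeloid markers 4 of 5 had a peak (none at Lyz2), summing to 138 to 164 CPM in HOMO CC against 114 to 116 CPM in HOMO CB and to 121 to 153 CPM in WT CC against 103 to 123 CPM in WT CB. The 4 plasma cell markers summed to 560 to 684 CPM in HOMO CC, 632 to 738 in WT CC, 590 to 723 in HOMO CB and 716 to 806 CPM in WT CB. The part of these marker levels in the member results was not tested.

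As a description with no test, the gene-end peak of each gene was set beside all other gene-end peaks with a mean log2 CPM of at least 3, by Pearson's r of log2 CPM over the 12 libraries, which share their depth and processing. The Cxcr4 start peak was most like those of Rchy1 (0.89) and Znhit2 (0.88), and the Itga4 start peak those of Mettl8 and Syk (0.92 each). S1pr2 was most like Klf11 (0.97) and Srebf2 (0.96), S1pr1 like Kpna3 (0.95) and Fam222b (0.94), and Gna13 like Fem1c and Srcap (0.97 each). Cxcr5 was most like Gnao1 (0.93) and H2ac8 (0.92), Ccr7 like Slc35b2 (0.90) and Fbxo4 (0.89), and Gpr183 like Shcbp1 and Arsa (0.81 each). Ccr6 has no gene-end peak. The S1pr1 peak ranged over 1.08 log2 units between libraries, and the Cxcr4 start peak over 0.37.

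The 50 kb window set which peaks were counted. The member farthest from its gene lay 49188 bp from S1pr1, and 45 of the 120 members lay over 10 kb from their gene. Near Cxcr4 and S1pr1 no peak within 50 kb was closer to another gene, while 28 peaks within 50 kb of Gpr183, 19 of Cxcr5, 14 of S1pr2, 13 of Gna13, 8 of Ccr6, 3 of Itga4 and 2 of Ccr7 were nearer to another gene and were not counted here.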

How the data were processed

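The deposited table holds raw read counts per peak for 12 libraries, as the authors left them, with mm10 coordinates. Tools listed in the submitters' processing notes are R 4.2.1, deepTools, BWA and FastQC, with no role for any. Which program found the peaks, whether libraries were pooled for it, and whether reads were deduplicated or shifted for Tn5 is not given in the sources used. The column names begin with Pbrm1AID, which the labels do not explain.

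Counts were fitted over all 68689 peaks of equal length with edgeR 4.0.16 under R 4.3.3: TMM factors (0.954 to 1.05), 1 mean per group, robust quasi-likelihood dispersions, two-sided F tests and Benjamini-Hochberg adjustment, with a threshold of 0.05. The filter removed 0 peaks. The common biological coefficient of variation was 0.142, the median SE of a log2 fold change 0.2, and the chi-square per degree of freedom between replicates 2.28 to 7.66, so every pair differed by more than counting error. CPM uses TMM factors. Intervals are 95% intervals from the SE and the t quantile of the fit.

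Each peak went to the closest protein-coding gene span, out of 21631 in RefSeq GRCm38.p6, if within 50000 bp; 64044 peaks (93.2%) found one, at 14357 genes, and counts were also summed per gene. Promoter windows come from a RefSeq table of the same assembly, with an entry for 6 of the 9 genes, and gene starts and strands were taken from it. DESeq2 1.42.0 and limma 3.58.1 served as alternatives. Tables and figures were made with pandas 2.3.3, matplotlib 3.10.9 and numpy 2.4.6 in Python 3.11.15, and R read them with the package data.table (version 1.17.8).

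The member peaks named are those called in any contrast, the gene-end peaks and the strongest peak of each gene, 38 in all; some are given by their change alone. From the lists, some of the called gene-end peaks and of the called peaks of smallest p are named, and others are left out. The members and lists were chosen with earlier results of these data known. Some lists counted in the same fits, and 1 gene of the germinal center and dark zone marker lists, are not reported here; the marker sums leave that gene out.

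Same-numbered CB and CC libraries of a genotype deviated together from their group means (r 0.21 to 0.52 in 6 pairs, against -0.34 to 0.12 in 12 pairs of different number), so the numbers were taken to pair CB with CC, from the data and not from the labels. A fit with this replicate block, a term for each number within a genotype, stands beside the CC over CB results. For HOMO against WT the block is instead a term for the number, shared by both genotypes.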

Additional observations from a re-analysis of the deposited data

How the results depend on the processing

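Each choice was changed alone over the whole table. For HOMO against WT in CB (3 member peaks, 2 genes), DESeq2 called 6 peaks (4 higher, 2 lower; 1.35% higher and 4.78% lower over all peaks), a covariate for log2 library total 16 (8 and 8; 3.24% and 8.59%), leaving out both HOMO libraries numbered 1 called 7 (5 and 2; 1.34% and 5.8%), leaving out both WT libraries numbered 2 called 1 peak and 1 gene, and a 10 kb window 1 peak and 1 gene. For HOMO against WT in CC (1 peak, 1 gene), DESeq2 called 4 peaks (2 and 2; 1.05% and 3.49%), the depth covariate 12 peaks (7 and 5; 2.71% and 5.71%) and 2 genes, leaving out both HOMO libraries numbered 1 called 11 peaks (9 and 2; 1.81% and 4.66%) and 4 genes, leaving out both WT libraries numbered 2 called 0 of each, and cyclic loess called 0 genes. For CC against CB in HOMO (12 peaks, 1 gene) the depth covariate called 24 peaks (7 higher, 17 lower) and 2 genes. Over the whole table it called 5688 higher and 3305 lower peaks, and 735 higher and 591 lower genes. For CC against CB in WT (10 peaks, 0 genes), cyclic loess called 5 peaks and the depth covariate 19 peaks and 4 genes. Leaving out both WT libraries numbered 2 called 0 peaks. Over the whole table cyclic loess called 1276 higher and 976 lower peaks, and leaving out those libraries 333 and 194. There the depth covariate called 4447 higher and 3411 lower peaks, and 604 higher and 974 lower genes. Also in WT, 1 gene was called by DESeq2, with a 10 kb window, and without both HOMO libraries numbered 1. Over all genes these called 451 higher and 531 lower, 227 and 263, and 393 and 483. In CB, HOMO against WT without both WT libraries numbered 2 called 254 higher and 1406 lower of all peaks. In CC it called 81 and 244. Over all genes, HOMO against WT in CC gave 460 higher and 1204 lower calls with the depth covariate. Leaving out both HOMO libraries numbered 1 gave 406 and 1009 there. Leaving out both WT libraries numbered 2 gave 40 and 205, and cyclic loess gave 76 and 234. In CB, the calls over all genes were 87 higher and 776 lower without both WT libraries numbered 2. With the 10 kb window they were 127 and 1242. The cause of these shifts was not tested.

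With a replicate block, HOMO against WT gave 17 peaks in CB (11 higher, 6 lower, 14.2% of members against 13.2% of all peaks), and 13 peaks (8 higher, 5 lower, 10.8% against 10.4%) and 3 genes in CC. Over all genes the block called 740 higher and 1593 lower in CC, against 113 and 560 without it. That fit has 1 term per number shared by both genotypes. The labels do not say what the number shares between them, and the main genotype fit has no such term. CC against CB gave 30 peaks and 5 genes in HOMO, and 37 peaks and 5 genes in WT. Between genotypes, same-numbered pairs had r of -0.01 to 0.40 (12 pairs), against -0.30 to 0.18 in 24 pairs of different number. The values differed by number, at 0.28 to 0.40 for number 3, 0.14 to 0.18 for number 1 and -0.01 to 0.03 for number 2. Not every library correlated best with its own number. Libraries numbered 3 thus varied together between genotypes, and those numbered 2 did not.

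Leaving out 1 library at a time gave 0 to 6 peaks and 0 to 2 genes in CB, and 0 to 6 peaks and 0 to 3 genes in CC. It gave 7 to 15 peaks and 1 gene throughout for CC against CB in HOMO, and 1 to 12 peaks and 0 to 1 gene in WT. The count was 0 peaks without HOMO CB 2 in CB, and 0 without HOMO CC 2 in CC. It was 7 without HOMO CB 2 or HOMO CC 2 in HOMO, and 1 without WT CB 1 or WT CC 2 in WT. Calls over all peaks fell as well. They were 35 higher and 306 lower without HOMO CB 2 in CB, and 6 and 11 without HOMO CC 2 in CC. For CC against CB in HOMO they were 2050 and 925 without HOMO CB 2, and 1336 and 682 without HOMO CC 2. In WT they were 830 and 471 without WT CB 1, and 976 and 593 without WT CC 2. The 3 genes in CC came without HOMO CC 1, where 329 higher and 807 lower of all genes were called. The difference between populations stayed at 0 calls under each alternative run; a fit on the compared groups alone was not run for it, since it uses all 4. The summed Ccr6 value for HOMO over WT in CB (-0.10, not called) ranged from -0.17 to 0.02 over single libraries left out: 0.02 without HOMO CB 1 and 0.01 without WT CB 3. With the HOMO libraries numbered 1 both left out it was 0.02. Depth ranged 7.09-fold between libraries, and the median SE of 0.2 limits what changes could be seen.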
